A study of Homo sapiens with 10 samples.

Results

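The 55 genes described here code for proteins that build the mitotic spindle, attach chromosomes to it, condense and separate the chromosomes and divide the cell. They were taken as a list of gene symbols (mitotic kinases, cyclins, kinetochore, kinesin, condensin and cytokinesis genes with the transcription factor FOXM1), each symbol matched to 1 Ensembl gene among the 58395 genes counted, and all 55 passed the filter on low counts that left 16905 genes for testing. The genes were measured by total RNA sequencing in HeyA8, an established human ovarian cancer cell line, after transfection with 10 nM of an siRNA. There were 5 groups of 2 libraries: cells given the nontargeting control siNT1 and harvested at 24 h, siGGGGGC (labelled siMxy) at 24 h, siNT1 at 48 h, siGGCAGU (labelled si34a) at 48 h, and siGGGGGC at 48 h. Every cell in the series thus carried an siRNA at the same dose, no untransfected cells were used here, and siGGCAGU was measured at 48 h alone. The passenger strands of the siRNAs were chemically modified so that the guide strand is the one used, the replicates were duplicate wells, and p-values therefore measure the spread between wells of 1 cell line. The study asked which transcripts respond when short RNAs with 6-base seeds that are toxic to cells enter the RNA silencing machinery.

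As background, a dividing cell makes most mitotic transcripts in G2 phase and M phase of the cell cycle. Cyclin B1 with the kinase CDK1 starts mitosis, condensin compacts the chromosomes, and the kinetochore, a protein assembly on the centromere, binds spindle microtubules. The spindle assembly checkpoint holds the anaphase promoting complex inactive until all kinetochores are attached. The complex, with its activator CDC20 and the ubiquitin conjugating enzyme UBE2C, then marks securin and cyclin B1 for destruction, which frees separase to cut cohesin. Transcription of many of these genes is known to depend on the MuvB complex with MYBL2 and FOXM1 at a promoter element called the cell cycle homology region (CHR).

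The names of the siRNAs are their seeds, guide bases 2 to 7, which pair with a messenger RNA. The same 6 bases stand in natural miRNAs, whose mature sequences from RefSeq (GRCh38.p14) are shown because they place both siRNAs among known seed families, with bases 2 to 8 in capitals.
hsa-miR-34a-5p: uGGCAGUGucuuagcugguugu
hsa-miR-449a: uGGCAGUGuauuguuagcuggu
hsa-miR-449b-5p: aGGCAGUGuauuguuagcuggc
hsa-miR-4488: aGGGGGCGggcuccggcg
hsa-miR-1237-5p: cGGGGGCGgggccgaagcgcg
The first 3 share GGCAGU and the last 2 share GGGGGC, at bases 2 to 7.

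The site in a messenger RNA that pairs with the seed of siGGGGGC reads GCCCCC. It was present in the 3′ UTR of 7 of the 55 genes (12.7%), against 31.6% of the 12397 tested genes with an annotated 3′ UTR. The site for siGGCAGU reads ACTGCC, and was present in 13 of 55 (23.6%) against 36.5%. The 3′ UTRs of the mitotic genes were shorter, with a median of 825 bases against 1539 bases. CENPB, which codes for a protein that binds a short motif in centromeric satellite DNA, held 4 copies of GCCCCC, more than any other gene of the list. BUB3 held 2 copies, and PLK1, INCENP, BIRC5, CENPM and MKI67 1 each. Of the CENPB sites 3 and, for comparison, the single sites of PLK1 and BIRC5 are shown with the match in capitals (GRCh38, windows of 30 bases in the 3′ UTR, CENPB on the minus strand and the other genes on the plus strand).
CENPB, chr20:3784648-3784677: ggacctagctgtGCCCCCaacctagattgg
CENPB, chr20:3784223-3784252: ggtccagcctagGCCCCCtgcaaggctggc
CENPB, chr20:3784040-3784069: ggtttccaagagGCCCCCcaccgtggaagt
PLK1, chr16:23690146-23690175: tgtctgcagtgtGCCCCCcagccccggtgg
BIRC5, chr17:78225549-78225578: agccaaactggaGCCCCCattgcaggctgt
For siGGCAGU, the ACTGCC sites of FOXM1 (minus strand) and NCAPH (plus strand), which fell with that siRNA, are shown with the pair of sites in BUB3 (plus strand). BUB3 held 2 copies of ACTGCC, the most of any gene of the list, and was the gene that did not fall.
FOXM1, chr12:2858212-2858241: cattatccagagACTGCCagaaggtgggta
NCAPH, chr2:96373547-96373576: tgattaaactttACTGCCctatggtgacca
BUB3, chr10:123167991-123168020: gggtctcgctatACTGCCcaggcaggtctc
BUB3, chr10:123169492-123169521: gtcttcacagccACTGCCctggtagtaagg

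Promoter sequences (RefSeq, GRCh38, 250 bases before to 50 after the start) were matched for 45 of the 55 genes. The CHR motif was searched as TTTGAA with its reverse complement TTCAAA and as the palindrome TTCGAA, so that both strands were covered. It was present in 33 of these 45 promoters (73.3%) and in 13.7% of 22199 protein-coding promoters of the same length. A CCAAT box, searched on both strands, was in 34 (75.6%) against 34.7%, and both motifs were in 26 (57.8%) against 5.48%. Such matches are descriptions of the sequence. Most CHR matches of the mitotic genes lay close to the start site, as the plot of motif positions shows, and 4 examples from different functional groups are given with the match in capitals.
PLK1, chr16:23678848-23678877, plus strand: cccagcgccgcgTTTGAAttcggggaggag
CDCA8, chr1:37692481-37692510, plus strand: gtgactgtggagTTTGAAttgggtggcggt
CCNB2, chr15:59105105-59105134, plus strand: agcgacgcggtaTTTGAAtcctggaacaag
CENPA, chr2:26786026-26786055, plus strand: cggagcgagcgaTTTGAAcgcgagcggcgc

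**Figure D1:**
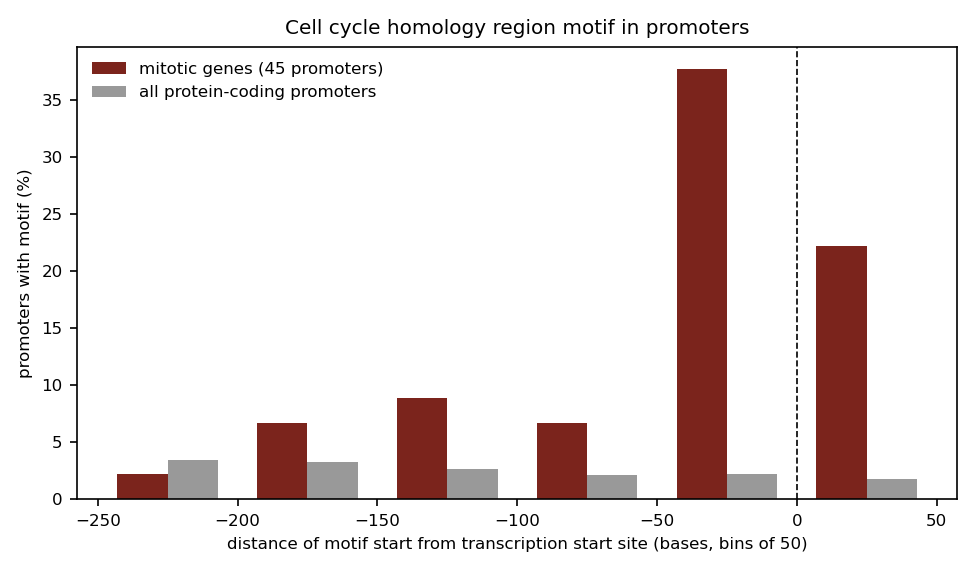
Share of promoters (%, y axis) with a CHR motif starting in each 50-base bin of distance from the transcription start site (x axis, bases), for the 45 matched mitotic genes (dark bars) and all 22199 protein-coding promoters (grey bars). The bin just before the start held a motif in 37.8% of mitotic promoters and 2.2% of all promoters, and the bin after it in 22.2% and 1.78%.

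The libraries held 19781445 to 42428986 counts in genes. Short noncoding RNAs took 20.9 to 33.4% of them, with the lowest share in siNT1 at 48 h, and the 1st siNT1 library at 24 h stood apart with 33365 genes detected against 25238 to 28703 in the others. Markers fixed for the cell type behaved unevenly: the keratin-led epithelial list and the vimentin-led mesenchymal list were both abundant (summed normalised counts of 6379 to 22702 and 24057 to 58976), while MUC16, the CA125 antigen, was at 0 to 2.73 in all libraries but the 1st siNT1 library at 24 h, where it was 29.6. Both lists were lowest with siGGGGGC at 48 h. The 5 leukocyte markers summed to between 0 and 6.23, and the 4 endothelial markers to between 20.2 and 71.1. The part of depth, of the short RNA share or of the library that stood apart in the results was not tested, except that values without each library are given where they change a result.

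Before any normalisation, the 55 genes together took 0.701% and 0.687% of all counts in the siNT1 libraries at 24 h, and 0.813% in each of the siGGGGGC libraries at 24 h. At 48 h they took 0.745% and 0.699% with siNT1, 0.489% and 0.504% with siGGGGGC, and 0.240% and 0.263% with siGGCAGU. Mitotic transcripts were thus a slightly larger fraction of the RNA at 24 h of siGGGGGC and a smaller one at 48 h of either siRNA, smallest with siGGCAGU. In RNA from whole wells, fewer cells in G2 and M phase and less of each mRNA per cell cannot be told apart.

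In control cells, CCNB1 (cyclin B1) was the most abundant of the genes per length, at 3730 ± 288 normalised counts per kilobase of exon (SD, n = 2) with siNT1 at 48 h, followed by PTTG1 (securin) at 2660 ± 483 per kilobase, UBE2C at 2030 ± 99.9 and TOP2A (topoisomerase II alpha) at 1710 ± 57.1. The 2 libraries of PTTG1 differed from each other by about as much as its mean differed from that of UBE2C, so their order was not separated from the spread. Between 24 h and 48 h of siNT1, 4 of the 55 genes rose and 16 fell (adjusted p below 0.05 by the quasi-likelihood test of edgeR, adjusted by Benjamini-Hochberg over all tested genes, here and throughout), against 9.37% of all genes higher and 7.20% lower. These shifts depended on the scaling: with total counts in place of TMM factors the median of all genes moved from -0.0039 to 0.23 on the log2 scale, 8 mitotic genes were higher and 4 lower, and the split over all genes changed from 1584 higher and 1217 lower to 2729 and 179. With upper quartile factors 26 of the 55 were lower, and all genes split into 1297 higher and 1736 lower. The 4 that rose were INCENP (log2 fold change 0.86, SE 0.132), MKI67 (0.73, SE 0.179), CENPE (0.48, SE 0.106) and CENPF (0.42, SE 0.0962). MKI67, which codes for the proliferation antigen Ki-67, was uneven in the control, with 3463 and 1978 normalised counts in the siNT1 libraries at 48 h and 1643 and 1635 at 24 h. Without the 1st siNT1 library at 48 h its change with time was 0.28 (adjusted p = 0.194, edgeR), and the number of genes that fell with time was 3. Without the 1st or the 2nd siNT1 library at 24 h that number was 5 or 3, and 1 gene rose in either case.

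At 24 h of siGGGGGC, mitotic genes were mostly somewhat higher than in the control. Of the 55 genes, 28 rose, where 10.6% of all genes did, and 2 fell, where 8.32% did. The median log2 fold change was 0.29, against 0.0035 for all tested genes. The rises were small: the largest was 1.90-fold, in UBE2C. Mitotic kinases and the chromosomal passenger complex rose in 5 of 6 genes and the genes of anaphase promotion in 3 of 4, while the inner kinetochore held 2 that rose and 1 that fell among 7. With total-count scaling 17 of the 55 rose and 2 fell, while all genes changed from 1797 higher and 1406 lower to 781 and 1417. With only the 24 h libraries in the fit 39 rose and 4 fell, and all genes stood at 2617 higher and 2488 lower. Leaving out the 1st or the 2nd siNT1 library at 24 h, which leaves 1 in the group, gave a median of 0.28 or 0.35, and fewer genes passed.

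UBE2C, the ubiquitin conjugating enzyme of the anaphase promoting complex, had 2353 and 2387 normalised counts with siNT1 at 24 h and 4758 and 4254 with siGGGGGC (log2 fold change 0.93, SE 0.0919, adjusted p = 6.82e-06 by edgeR). Both treated libraries lay well above both controls. SPC24, a subunit of the NDC80 complex that grips microtubules, went from 2568 and 2640 to 4278 and 4657 (0.78, SE 0.111, adjusted p = 0.000180 by edgeR). PLK1, the polo-like kinase needed for spindle assembly and mitotic exit, went from 391 and 423 to 625 and 618 (0.61, SE 0.130, adjusted p = 0.00400 by edgeR). In neither gene did the groups overlap. PRC1, which bundles the microtubules of the central spindle, was counted at 113 and 129 in the control and 206 and 210 with siGGGGGC (0.79, SE 0.168, adjusted p = 0.00393 by edgeR). Its level is uncertain, as 57.6% of its exon bases in GENCODE are shared with another gene on the same strand.

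The genes that fell at 24 h were CENPB and CENPE. CENPB dropped from 2524 and 2629 normalised counts to 1142 and 1057 (log2 fold change -1.23, SE 0.122, adjusted p = 6.82e-06 by edgeR), which is 2.34-fold lower. The study chose CENPB on these samples among the targets it followed, so its fall is not independent evidence of its direction. CENPE, the kinesin that carries chromosomes to the spindle equator, went from 2030 and 2019 to 1440 and 1659 (-0.39, SE 0.108, adjusted p = 0.0209 by edgeR). Its value was -0.38 without the 1st or the 2nd siNT1 library at 24 h. Without the 1st and the 2nd siGGGGGC library it was -0.28 and -0.48, and the call was lost in all but the last of these fits. The treated libraries of both genes lay below the controls. FOXM1, the transcription factor of the list, had 380 and 436 in the control and 310 and 354 with siGGGGGC (-0.29, SE 0.128, adjusted p = 0.126 by edgeR).

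**Figure D2:**
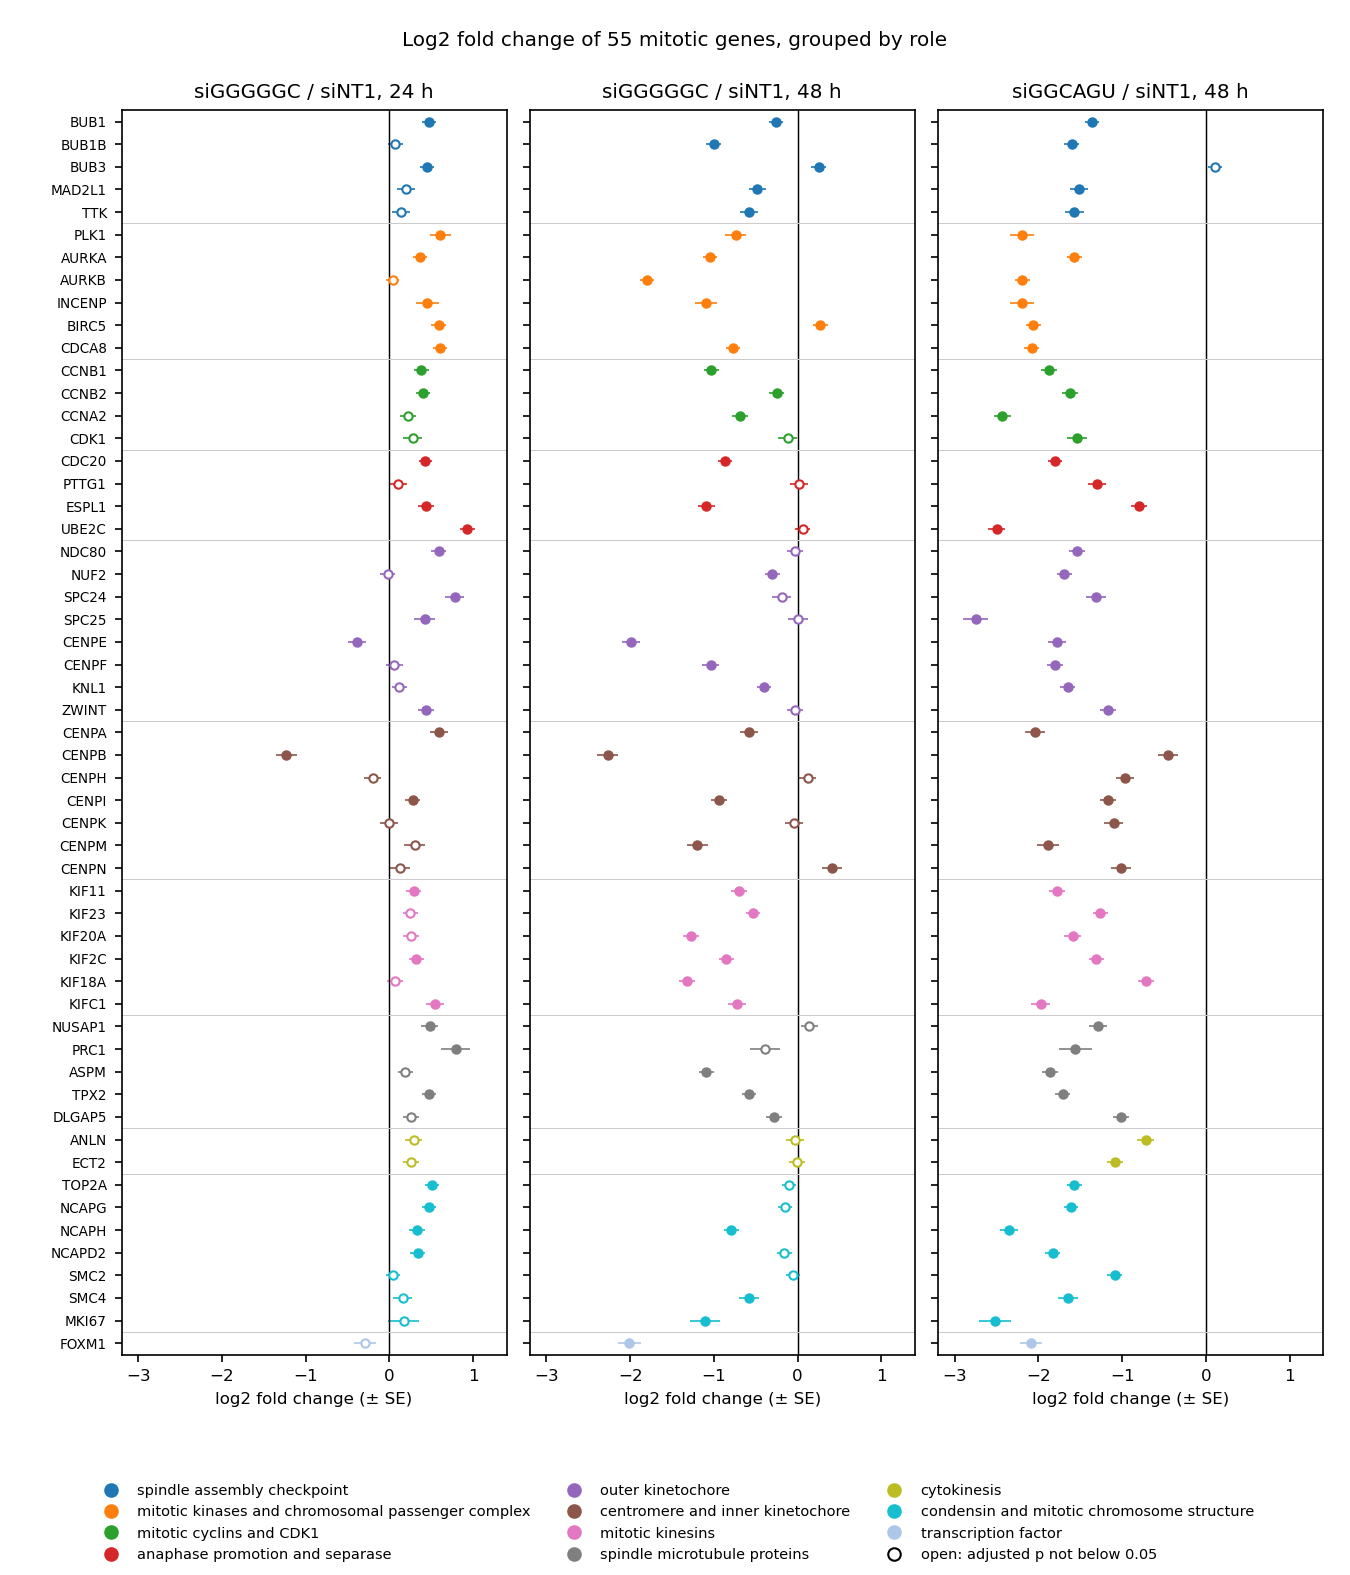
Log2 fold change with its standard error (x axis) of each of the 55 genes (rows, coloured by functional group) for siGGGGGC over siNT1 at 24 h, siGGGGGC over siNT1 at 48 h and siGGCAGU over siNT1 at 48 h. Filled points passed an adjusted p below 0.05. At 24 h most points lie to the right of 0, with CENPB far to the left. At 48 h siGGGGGC spread the genes from -2.27 to 0.41, and with siGGCAGU BUB3 is the only point to the right of 0.

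At 48 h of siGGGGGC, the same list was lower than in the control, but not uniformly. Of the 55 genes 35 fell, where 27.5% of all genes did, and 3 rose, where 27.8% did. Falls of more than 2-fold were seen in 15 of the 55, against 11.0% of all genes. The median log2 fold change was -0.58, against -0.01 for all tested genes. Total-count scaling gave 42 that fell and 0 that rose (edgeR), with all genes at 3236 higher and 5337 lower in place of 4702 and 4643 and their median at -0.17. The other 17 genes did not pass the test, among them CDK1, TOP2A, NDC80 and UBE2C. Both 48 h comparisons use the same siNT1 libraries, so the values of siGGGGGC and siGGCAGU against siNT1 are not independent of each other.

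CENPB was the lowest, at 506 and 429 normalised counts against 1960 and 2558 with siNT1 (log2 fold change -2.27, SE 0.127, adjusted p = 1.47e-09 by edgeR), a 4.84-fold difference. FOXM1 had 111 and 134 against 500 and 489 (-2.01, SE 0.134, adjusted p = 9.15e-09 by edgeR). In FOXM1, 15.9% of the exon bases overlap ITFG2 on the opposite strand, and whether strand was used in counting is not stated. CENPE had 799 and 631 against 2876 and 2786 (-1.99, SE 0.112, adjusted p = 1.56e-09 by edgeR). AURKB, the kinase of the chromosomal passenger complex that corrects faulty attachments, had 478 and 459 against 1606 and 1647 (-1.80, SE 0.0853, adjusted p = 2.68e-10 by edgeR). For these 4 genes both libraries of siGGGGGC lay far below both control libraries.

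Not all partners of AURKB moved with it. INCENP, its scaffold, had 332 and 362 with siGGGGGC at 48 h and 832 and 653 with siNT1 (log2 fold change -1.09, SE 0.133), and CDCA8 (borealin) had 1089 and 1148 against 1950 and 1855 (-0.77, SE 0.0854). BIRC5 (survivin), the 3rd partner, was instead higher, at 6687 and 6758 against 5238 and 5878 (0.27, SE 0.0882, adjusted p = 0.0155 by edgeR). Within the passenger complex the kinase and 2 partners thus fell while survivin rose slightly. INCENP and BIRC5 each hold 1 GCCCCC site. Of the 2 other genes that rose, 1 was CENPN (734 and 896 in the control, 1138 and 1033 with siGGGGGC, log2 fold change 0.41, SE 0.116, adjusted p = 0.00725 by edgeR), an inner kinetochore protein. CENPN shares 12.6% of its exon bases with another gene on the same strand, and genes on the opposite strand overlap it too. The other was BUB3 (7658 and 8687 in the control, 9850 and 9580 with siGGGGGC, 0.25, SE 0.0885, adjusted p = 0.0260 by edgeR), a checkpoint protein. The rises of these 3 genes were weak: none passed without the 1st siNT1 library at 48 h or without the 1st siGGGGGC library at 48 h, and 1 passed without the 2nd siGGGGGC library at 48 h.

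Among the cyclins and CDK1, CCNB1 fell from 8574 and 9564 normalised counts to 4398 and 4498 (log2 fold change -1.03, SE 0.0920, adjusted p = 2.07e-07 by edgeR), while its kinase partner CDK1 was at 4136 and 4786 in the control and 4116 and 4115 with siGGGGGC (-0.12, 95% interval -0.36 to 0.13). CCNB2 (-0.25, SE 0.0871) and CCNA2 (-0.69, SE 0.0941) also fell. In the anaphase group, CDC20 fell from 3073 and 2985 to 1636 and 1672 (-0.87, SE 0.0814), and ESPL1, which codes for separase, fell from 577 and 550 to 258 and 270 (-1.09, SE 0.0990). PTTG1 (0.02, 95% interval -0.21 to 0.25) and UBE2C (0.06, 95% interval -0.13 to 0.26) did not pass the test. Libraries of the 2 groups overlapped for PTTG1 and UBE2C and were separate for CCNB1, CDC20 and ESPL1.

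All 6 mitotic kinesins fell, by between 0.53 (KIF23, a central spindle motor) and 1.32 (KIF18A, which caps the growth of kinetochore microtubules) on the log2 scale. KIF20A fell by 1.27 and KIF11, the motor that separates the spindle poles, by 0.70. In the outer kinetochore, CENPE, CENPF, KNL1 and NUF2 fell, whereas NDC80 (1972 and 2190 in the control, 2057 and 2009 with siGGGGGC, log2 fold change -0.03, 95% interval -0.23 to 0.16), SPC24, SPC25 and ZWINT did not pass the test. The subunits of the 4-part NDC80 complex therefore had log2 fold changes from -0.30 (NUF2) to 0.01 (SPC25). In the inner kinetochore, CENPM (-1.20), CENPI (-0.94) and the centromeric histone CENPA (-0.58) fell with CENPB, and CENPH and CENPK did not pass.

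Of the condensin I subunits, NCAPH fell from 944 and 891 to 534 and 525 (log2 fold change -0.79, SE 0.0929) and SMC4 by 0.58 on the log2 scale. NCAPG, NCAPD2 and SMC2 stood at -0.15, -0.16 and -0.06 and did not pass. For NCAPG and SMC4, 33.7% and 19% of the exon bases overlap a gene on the opposite strand. TOP2A, which untangles DNA before chromosomes separate, had 10659 and 11174 in the control and 10322 and 10116 with siGGGGGC (-0.10, 95% interval -0.27 to 0.08). MKI67 fell (-1.11, SE 0.181), but the size rested on the uneven control: without the 1st siNT1 library at 48 h it was -0.66 (adjusted p = 0.000245, edgeR) and without the 2nd -1.47. Both cytokinesis genes, ANLN (-0.03) and ECT2 (-0.01), did not pass the test. Checkpoint genes fell in 4 of 5 cases, from BUB1B (1528 and 1748 to 829 and 810, 2.00-fold lower) to BUB1 (log2 fold change -0.26).

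**Figure D3:**
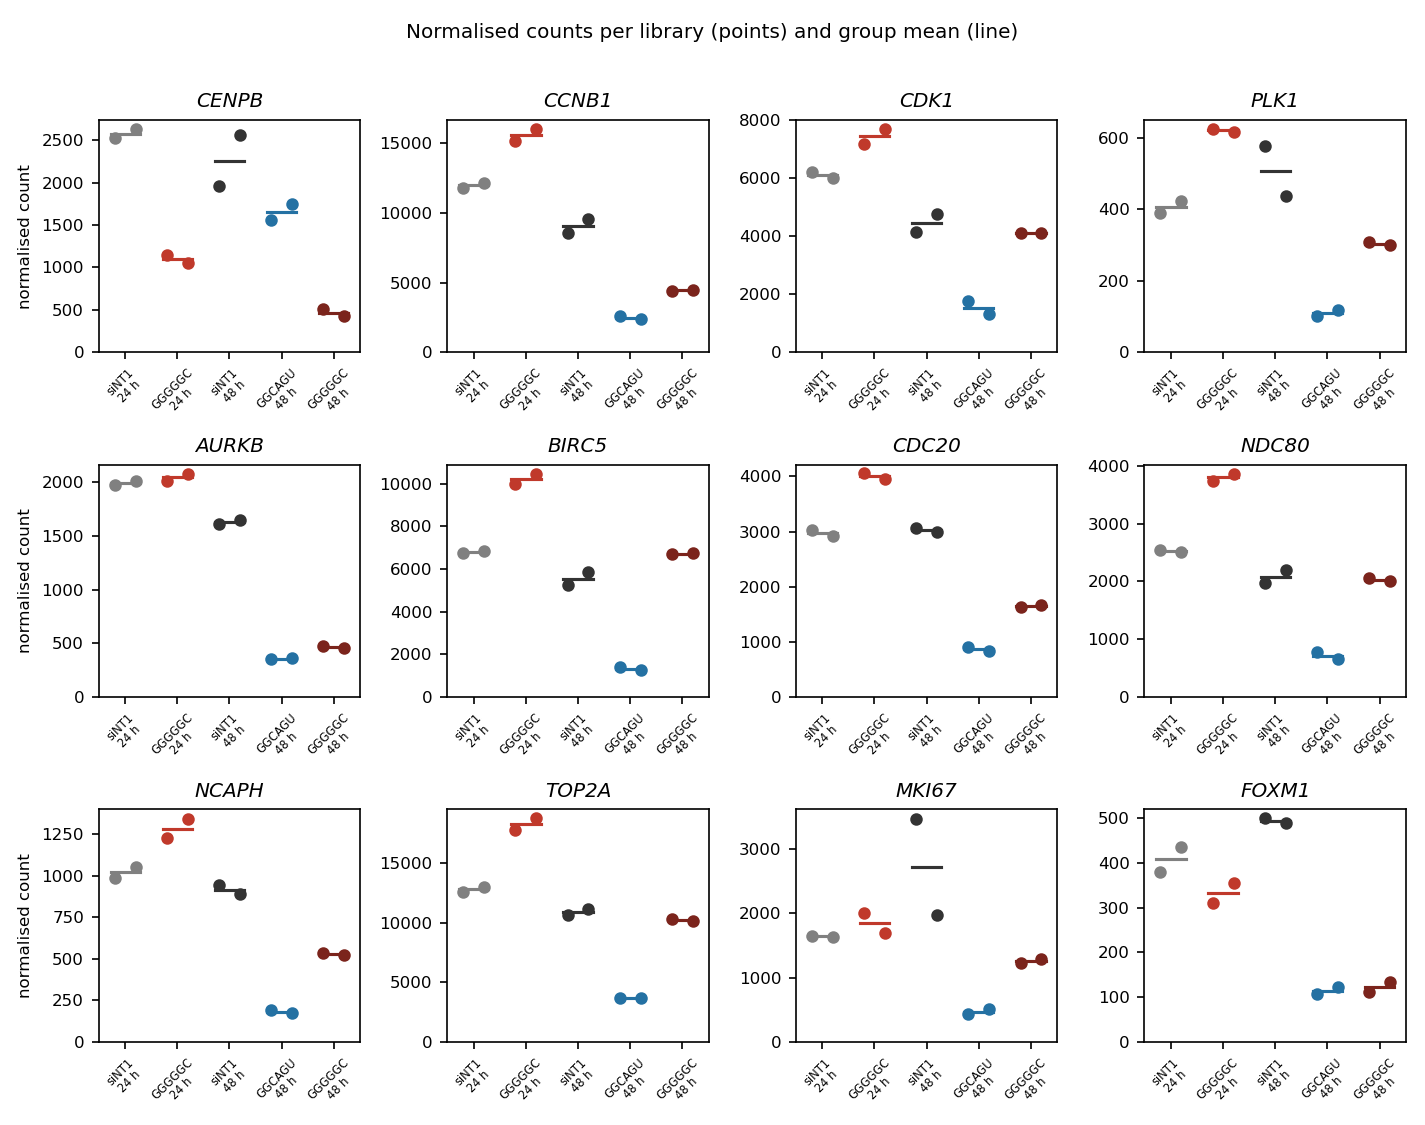
Normalised counts (y axis, starting at 0) of 12 of the mitotic genes in each of the 10 libraries (points, x axis by group), with the mean of each group of 2 as a line. CENPB is lowest with siGGGGGC at either time, most other genes are lowest with siGGCAGU, and AURKB and FOXM1 are low with both siRNAs at 48 h. The siNT1 libraries of MKI67 at 48 h lie apart at 3463 and 1978.

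At 48 h of siGGCAGU, the fall was nearly general. Of the 55 genes 54 fell, where 24.9% of all genes did, and 0 rose, where 27.8% of all genes did (edgeR, with 0 also at an unadjusted p below 0.05 and by DESeq2). Falls of more than 2-fold were found in 49 of the 55, against 9.62% of all genes. The median log2 fold change was -1.60, against 0.02 for all tested genes. Scaling by total counts left 54 that fell, while all genes changed from 4699 higher and 4207 lower to 3257 and 4769, with their median at -0.13. BUB3 was the exception, at 8991 and 8626 normalised counts against 7658 and 8687 in the control (log2 fold change 0.11, 95% interval -0.08 to 0.30).

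The largest fall was in SPC25, the partner of SPC24 in the NDC80 complex, with 54.9 and 73.0 normalised counts against 439 and 446 (log2 fold change -2.75, SE 0.148, adjusted p = 7.33e-10 by edgeR), a 6.72-fold difference. MKI67 had 428 and 513 against 3463 and 1978 (-2.52, SE 0.193, adjusted p = 3.35e-08 by edgeR), or -2.07 without the 1st siNT1 library at 48 h. UBE2C had 429 and 491 against 2703 and 2522 (-2.50, SE 0.0995, adjusted p = 4.31e-11 by edgeR). CCNA2, the cyclin of S and G2 phase, had 597 and 515 against 2848 and 3127 (-2.43, SE 0.101, adjusted p = 6.44e-11 by edgeR). In all 4 genes the siGGCAGU libraries were far below every control library.

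The 6 kinase and passenger complex genes all fell more than 2-fold, with a median log2 fold change of -2.13. PLK1 had 101 and 118 normalised counts against 578 and 439 (-2.19, SE 0.143), AURKB 350 and 362 against 1606 and 1647 (-2.19, SE 0.0871) and BIRC5 1395 and 1277 against 5238 and 5878 (-2.06, SE 0.0931). Survivin, which was slightly higher with siGGGGGC, was thus 4.17-fold lower with siGGCAGU. CCNB1 had 2611 and 2359 (-1.87, SE 0.0944), CDK1 1762 and 1324 (-1.54, SE 0.119) and CDC20 900 and 838 (-1.80, SE 0.0843), all below their controls. NDC80 had 776 and 662 (-1.54, SE 0.0960), TOP2A 3683 and 3676 (-1.57, SE 0.0867) and FOXM1 106 and 123 (-2.09, SE 0.133). No library of these genes reached its control group.

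Condensin and chromosome structure genes fell more than 2-fold in 7 of 7 cases. NCAPH, the subunit that closes the condensin ring, had 190 and 172 normalised counts against 944 and 891 (log2 fold change -2.35, SE 0.103, adjusted p = 9.46e-11 by edgeR). The smallest falls of the list were in CENPB, ANLN, KIF18A, ESPL1 and CENPH. CENPB had 1564 and 1746 against 1960 and 2558 (-0.45, SE 0.117, adjusted p = 0.00451 by edgeR), and without the 2nd siNT1 library at 48 h the value was -0.25 (adjusted p = 0.0866, edgeR). KIF18A stood at -0.72, ANLN at -0.72, ESPL1 at -0.80 and CENPH at -0.97.

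The siRNAs were compared with each other directly at 48 h and 10 nM, where they differ in their labelled seeds, GGGGGC and GGCAGU. This was done for all 55 genes, with p-values adjusted over the 16905 tested genes. With siGGGGGC 48 of the 55 were higher than with siGGCAGU, against 26.7% of all genes, and 3 were lower, against 27.6%. A difference of more than 2-fold upward was present in 34 of the 55, against 10.1% of all genes. The median log2 difference was 1.09, against -0.01 for all genes.

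SPC25 differed most, with 474 and 416 normalised counts for siGGGGGC against 54.9 and 73.0 for siGGCAGU (log2 fold change 2.76, SE 0.150, adjusted p = 8.73e-10 by edgeR). It was followed by UBE2C with 2680 and 2776 against 429 and 491 (2.56, 95% interval 2.35 to 2.77), BIRC5 with 6687 and 6758 against 1395 and 1277 (2.33, SE 0.0940) and CCNA2 with 1936 and 1779 against 597 and 515 (1.75, SE 0.101). All condensin and chromosome structure genes were higher with siGGGGGC by more than 2-fold, from 1.04 (SMC2) to 1.67 (NCAPD2) on the log2 scale. The mitotic kinesins had a lower median, 0.59. Members of the passenger complex differed from each other, as the direct difference was 0.39 (SE 0.0905) for AURKB, 1.11 for INCENP, 1.31 for CDCA8 and 2.33 for BIRC5.

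The genes lower with siGGGGGC than with siGGCAGU were CENPB, with 506 and 429 against 1564 and 1746 (log2 fold change -1.83, SE 0.127, adjusted p = 1.14e-08 by edgeR), KIF18A, with 589 and 542 against 860 and 850 (-0.60, adjusted p = 0.000118 by edgeR), and ESPL1, with 258 and 270 against 334 and 316 (-0.30, SE 0.104, adjusted p = 0.0236 by edgeR). The call of ESPL1 was lost with DESeq2 (adjusted p = 0.105), total counts (adjusted p = 0.0752, edgeR), no filter on low counts (adjusted p = 0.0504, edgeR) or only the libraries compared in the fit (adjusted p = 0.0564, edgeR), and without the 1st siGGCAGU library (adjusted p = 0.0784, edgeR) or either siGGGGGC library at 48 h (adjusted p = 0.123 and 0.0691, edgeR). Groups did not overlap for these genes. In 4 genes the siRNAs were not separated by the test: FOXM1 (0.08, 95% interval -0.24 to 0.41), CENPE (-0.20, -0.44 to 0.04), BUB3 (0.14, -0.05 to 0.33) and CENPI (0.23, 0.03 to 0.43, adjusted p = 0.0534 by edgeR).

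**Figure D4:**
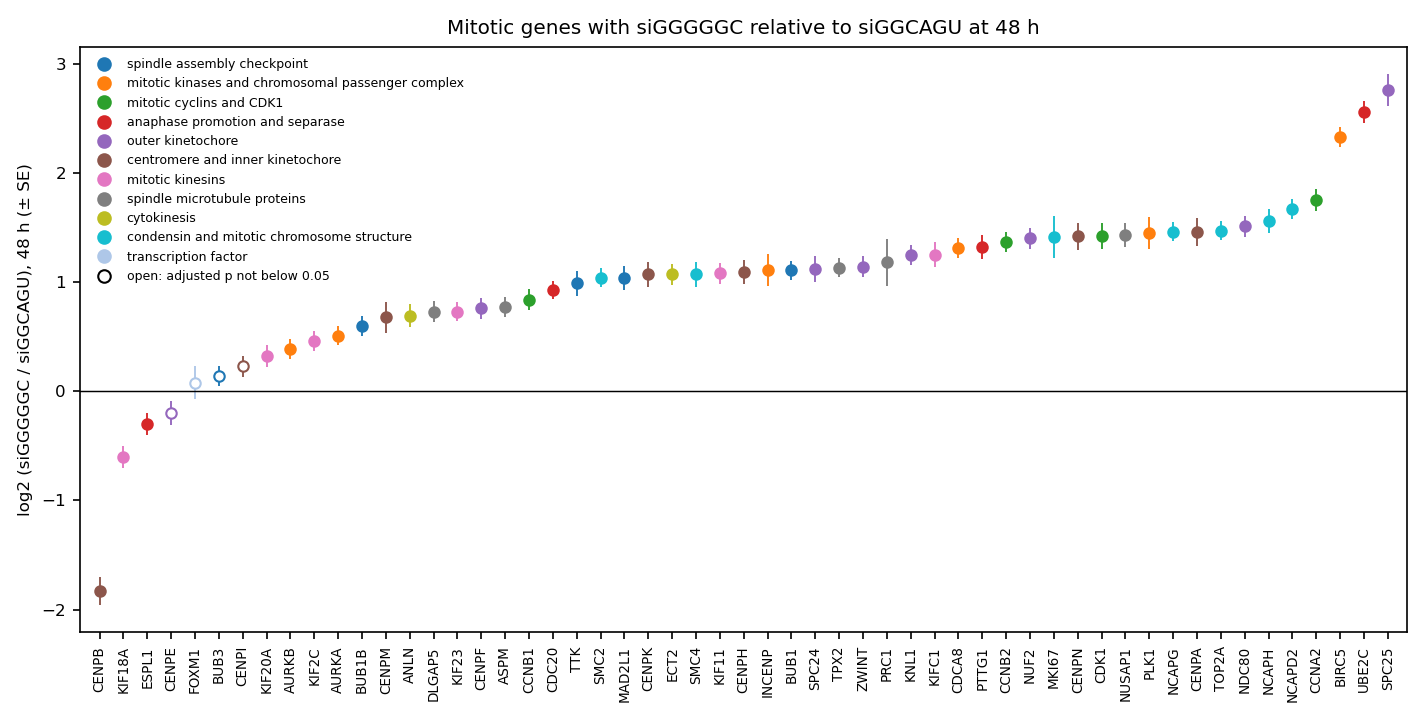
Log2 ratio of siGGGGGC to siGGCAGU at 48 h with its standard error (y axis) for the 55 genes in rising order (x axis), coloured by functional group and open where the adjusted p was not below 0.05. CENPB stands alone at -1.83, and BIRC5, UBE2C and SPC25 stand above the rest at 2.33 to 2.76.

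The effect of siGGGGGC was then compared between 48 h and 24 h by an interaction term in the same fit. It was lower at 48 h for 42 of the 55 genes, against 15.2% of all genes, and higher for 0 of them, against 13.4% of all genes (edgeR, with 1 higher at an unadjusted p below 0.05 and 0 by DESeq2). In 25 of the 55 the change was more than 2-fold, against 6.36% of all genes. The 2 effects rest on separate libraries of control and treated cells. By their calls at the 2 times, 16 genes rose at 24 h and fell at 48 h, where 1.17% of all tested genes did, with the interaction past the test in each. A further 17 fell at 48 h alone (3380 of the 16905 tested genes) and 10 rose at 24 h alone (2.57%). BUB3 and BIRC5 rose at both times (6.90%), CENPB and CENPE fell at both (6.31%), CENPN rose at 48 h alone (20.6%) and 7 passed at neither time (40.5%). Fewer genes, all from the same 16, kept all these calls in each fit without a 24 h library. Such a fit leaves 1 library in a group and takes its spread from the other groups. The median difference between the times over the 55 genes was -0.90 with all libraries. It was -0.87 and -0.97 without the 1st and the 2nd siNT1 library at 24 h, and -0.95 and -0.92 without the 1st and the 2nd siGGGGGC library. BUB1, CDCA8, CENPA, KIFC1, CDC20 and TPX2 kept all calls in each of these fits. INCENP, CENPI and KIF11 did not keep them in any, and AURKA, KIF2C, CCNB1 and NCAPH only without the 1st siGGGGGC library. Leaving out a 48 h library also mattered. BUB1 and CENPI did not keep all calls without either siGGGGGC library at 48 h. CCNB2 did not without the 2nd siGGGGGC or the 2nd siNT1 library at 48 h.

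The 16 genes that rose and then fell were BUB1, PLK1, AURKA, INCENP, CDCA8, CENPA, CENPI, KIF11, KIF2C, KIFC1, CCNB1, CCNB2, CDC20, ESPL1, TPX2 and NCAPH, from 8 of the functional groups. CCNB1, for instance, went from 11757 and 12137 with siNT1 to 15136 and 15965 with siGGGGGC at 24 h (log2 fold change 0.38, SE 0.0908, adjusted p = 0.00834 by edgeR), and was lower than its control at 48 h, so that the effects differed by -1.41 (SE 0.129, adjusted p = 2.00e-06 by edgeR). CDC20 had 3023 and 2921 against 4055 and 3954 at 24 h (0.43, SE 0.0808), and NCAPH 990 and 1054 against 1228 and 1343 (0.33, SE 0.0915). The 24 h libraries with siGGGGGC lay above those with siNT1 in each of these 3 genes.

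AURKB and FOXM1 fell at 48 h with no rise before: AURKB had 1969 and 2005 with siNT1 and 2008 and 2076 with siGGGGGC at 24 h (log2 fold change 0.04, 95% interval -0.13 to 0.21), and the effects differed by -1.83 (SE 0.117). Genes with a rise at 24 h alone included NDC80 (2542 and 2505 against 3733 and 3862, 0.59, SE 0.0919) and TOP2A (12548 and 13013 against 17766 and 18749, 0.51, SE 0.0845). BIRC5 itself had 6756 and 6853 against 10006 and 10442 at 24 h (0.59, SE 0.0885), and its effects at the 2 times differed by -0.31 (95% interval -0.58 to -0.05, adjusted p = 0.0732 by edgeR). CDK1 had 6204 and 6024 against 7189 and 7699 at 24 h (0.28, adjusted p = 0.101 by edgeR), and MKI67 1643 and 1635 against 1998 and 1692 (0.17, adjusted p = 0.572 by edgeR).

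**Figure D5:**
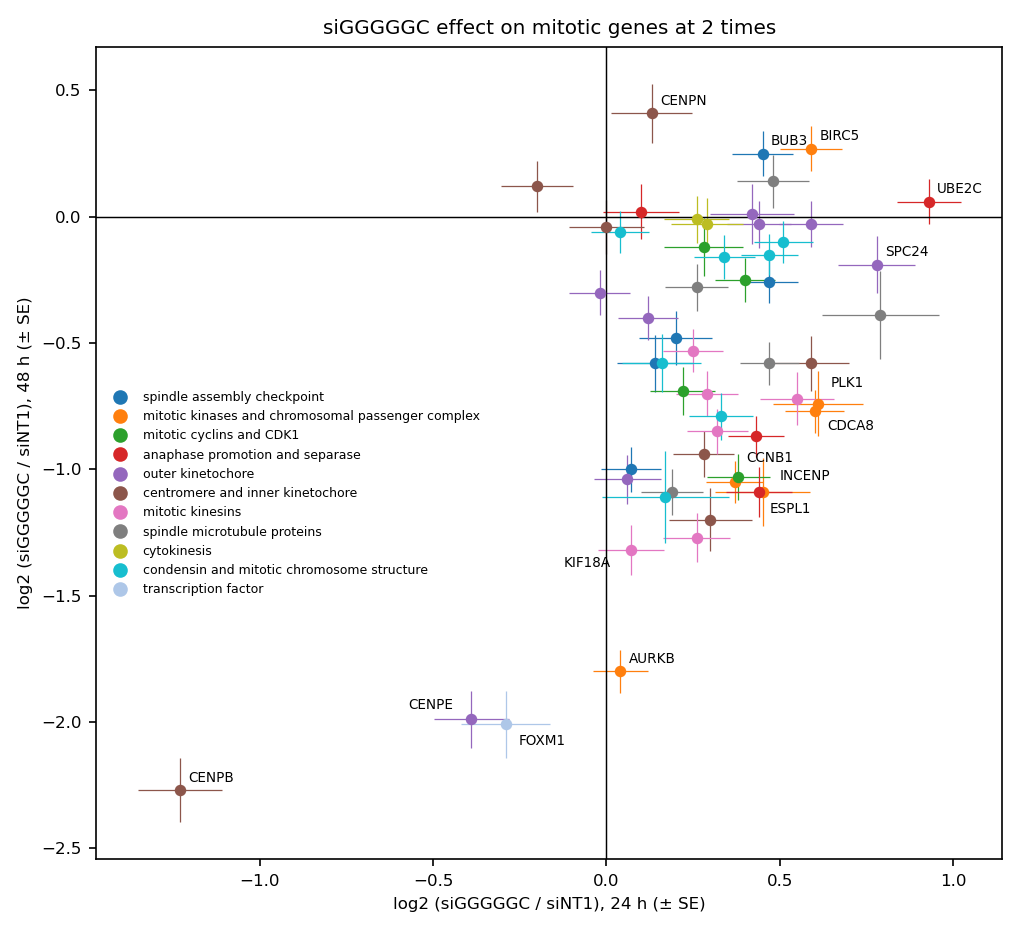
Log2 fold change of siGGGGGC over siNT1 at 24 h (x axis) and at 48 h (y axis) for the 55 genes, with standard errors and colours by functional group. Most genes lie to the right of 0 on the x axis and below 0 on the y axis, CENPB, CENPE and FOXM1 lie low on the left, and UBE2C is farthest right at 0.93.

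The 7 genes that hold the siGGGGGC site in their 3′ UTR were set beside the 48 that do not. At 24 h of siGGGGGC, 4 of the 7 rose and 1 fell, and of the 48 others 24 rose and 1 fell. The values of the 7 ran from -1.23 (CENPB) to 0.61 (PLK1) with a median log2 fold change of 0.45, against 0.29 in the genes without the site. At 48 h 5 of the 7 fell and 2 rose (median -1.09), and of the 48 others 30 fell and 1 rose (median -0.50). The corresponding shares of all genes were 10.6% higher and 8.32% lower at 24 h, and 27.8% higher and 27.5% lower at 48 h. With siGGCAGU, 12 of the 13 genes that hold its site fell (median -2.06), as did 42 of 42 without it (median -1.58), where 24.9% of all genes fell.

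Genes with and without a CHR motif in the promoter were likewise both affected. With siGGCAGU all 33 with the motif fell (median log2 fold change -1.60) and all 12 without it fell (median -1.45). With siGGGGGC at 48 h, 20 of 33 with the motif fell (median -0.39) and 9 of 12 without it (median -0.90), the latter including CENPB, CENPE and AURKB. At 24 h 18 of the 33 rose (median 0.34), and of the 12 without the motif 5 rose and 2 fell (median 0.24). These medians describe the list and were not tested against each other. Of all tested genes, 24.9% fell with siGGCAGU and 27.5% fell with siGGGGGC at 48 h. At 24 h of siGGGGGC 10.6% of all tested genes rose and 8.32% fell.

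Other genes of the pathway, from lists that do not hold the 55 genes, were read in the same fit. Beside their counts stand the shares of all genes, which were 10.6% higher and 8.32% lower at 24 h of siGGGGGC, 27.8% and 27.5% at 48 h, and 27.8% and 24.9% with siGGCAGU. Of 42 other G2 and M phase genes, 27 rose and the other 15 did not pass the test at 24 h of siGGGGGC, 6 rose and 23 fell at 48 h, and 42 of 42 fell with siGGCAGU. PIMREG, a mitotic gene, rose at 24 h (log2 fold change 1.03, SE 0.124) and was lowest with siGGCAGU (-2.24, SE 0.157), while CDC25B, the phosphatase that activates CDK1, fell most with siGGGGGC at 48 h (-1.91, SE 0.128). Of 25 other kinetochore proteins, 9 rose and 1 fell at 24 h, 6 rose and 10 fell at 48 h, and 2 rose and 21 fell with siGGCAGU. The share that rose at 48 h of siGGGGGC was near that of all genes. PMF1, of the MIS12 complex, was the gene that fell at 24 h (-1.37, SE 0.197) and fell further at 48 h (-2.19, SE 0.203), as CENPB did, and OIP5, which helps load CENPA, rose most at 24 h (1.21, SE 0.180).

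The 3 condensin II subunits all fell with siGGCAGU, led by NCAPD3 (log2 fold change -2.10, SE 0.133), and with siGGGGGC at 48 h NCAPH2 rose (0.63, SE 0.0971) while NCAPD3 fell (-0.86, SE 0.124). For these 3 genes the shares that rose and fell with siGGGGGC at 48 h were near those of all genes. Of 13 genes of cohesin and its regulators, 8 fell and 1 rose with siGGCAGU (median log2 fold change -0.50), and 7 fell and 3 rose with siGGGGGC at 48 h (median -0.24). The share of the 13 that rose with siGGGGGC at 48 h was near that of all genes. Of 17 genes of the anaphase promoting complex, 7 fell and 4 rose with siGGCAGU, and 7 fell and 6 rose with siGGGGGC at 48 h, with the shares that rose near those of all genes. Its chain-elongating enzyme UBE2S rose at 24 h (1.23, SE 0.141), was higher at 48 h of siGGGGGC (0.82, SE 0.135) and fell with siGGCAGU (-1.60, SE 0.145). Other genes of this list moved both ways with siGGGGGC at 48 h. CDC16 (-0.93, SE 0.119), ANAPC7 (-0.85, SE 0.0851), CDC27 (-0.67), ANAPC1 (-0.52), ANAPC4 (-0.46), ANAPC5 (-0.35) and FBXO5 (-0.32) fell. ANAPC10 (0.62, SE 0.115), ANAPC11 (0.60, SE 0.0915), CDC26 (0.43), ANAPC13 (0.28) and ANAPC16 (0.26) rose.

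Of the 12 regulators in the MuvB, MYB and pocket protein list, 8 fell with siGGCAGU and 4 did not pass the test. MYBL2 (B-MYB) was lowest, with a log2 fold change of -3.40 (SE 0.163) for siGGCAGU and -0.69 (SE 0.130) for siGGGGGC at 48 h. LIN9 (-1.04, SE 0.123) and LIN54 (-0.78, SE 0.101), subunits of MuvB, fell with siGGCAGU, and LIN52 and LIN37 did not pass there. CDKN1A, which codes for the CDK inhibitor p21, fell at 24 h of siGGGGGC (-0.35, SE 0.0971), rose at 48 h (0.75, SE 0.0962) and fell with siGGCAGU (-0.27, SE 0.0961). Its siGGGGGC effects at the 2 times differed by 1.10 (adjusted p = 3.15e-05 by edgeR). E2F4 fell with siGGGGGC at both times (-0.53, SE 0.120 and -1.20, SE 0.119) and with siGGCAGU (-0.80, SE 0.116).

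Genes of DNA replication were lower at 48 h too. In 25 genes of replication origin licensing and firing, which act in G1 and S phase, 25 fell with siGGCAGU (median log2 fold change -1.83), 19 fell and 2 rose with siGGGGGC at 48 h (median -0.40), and 9 rose and 16 did not pass at 24 h (median 0.23). In the direct comparison 24 of the 25 were higher with siGGGGGC (median 1.39). MCM3, a subunit of the replicative helicase, was the lowest of them with siGGCAGU, at -3.19 (SE 0.0942), and GMNN, which codes for the licensing inhibitor geminin, differed most between the siRNAs, at 2.58 (SE 0.0981).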

How the data were processed

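Total RNA of HeyA8 cells was depleted of ribosomal RNA and sequenced as paired ends. Per the study's methods and the labels, reads were trimmed, aligned to hg38 and counted per Ensembl gene with HTSeq; the labels name TopHat and Bowtie2, the aligner used for these files is given only as TopHat or STAR, and the strand setting is not given in the sources used here. The deposited values are raw counts per gene, not normalised, 1 table per library (58395 genes). Further deposited tables hold the authors' own fold changes and p-values from DESeq2 and were not used.

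Counts were fitted with edgeR 4.0.16 in R 4.3.3: filterByExpr over the 5 groups (16905 genes kept), TMM factors, 1 quasi-likelihood fit over all 10 libraries (5 residual degrees of freedom), and Benjamini-Hochberg adjustment over all tested genes. "Rose" and "fell" mean an adjusted p below 0.05. Normalised counts are counts scaled by TMM to the geometric mean of the library sizes, 24772794 counts. Standard errors and 95% intervals come from the same fit. Gene coordinates, exon lengths and 3′ UTRs (longest annotated) were taken from GENCODE 44, promoters and miRNAs from RefSeq. The fit was tested on simulated data. The sequence of 1 CENPB site is not reported here. Members and lists were chosen with earlier results of these data known. All members may be named, with library values for 12 preset genes and for the 4 largest falls and rises past the test in each comparison; genes outside the list come from the preset lists, as the largest fall and rise, with MYBL2, CDKN1A and 4 LIN genes. ANAPC1, ANAPC4, ANAPC5, ANAPC7, ANAPC10, ANAPC11, ANAPC13, ANAPC16, CDC16, CDC26, CDC27, FBXO5, NCAPH2, E2F4, UBE2S and the intermediate members printed beside them were chosen after their values were seen. Alternatives covered normalisation, filtering, the samples in the fit, DESeq2 1.42.0, a replicate block and leaving out each library.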

Additional observations from a re-analysis of the deposited data

Results flagged for a closer look

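The effect of siGGGGGC on mitotic genes differed between the times by an interaction term in the edgeR fit: 42 of the 55 genes had a lower effect at 48 h than at 24 h, where 15.2% of all genes did. For 16 genes the effect had opposite directions at the 2 times, each past the test, with the difference past it too, where 1.17% of all genes showed the same. Fewer of the 16 kept all these calls in each fit without a 24 h library, which leaves 1 library in a group. INCENP, CENPI and KIF11 did not keep them in any of these fits. AURKA, KIF2C, CCNB1 and NCAPH kept them only without the 1st siGGGGGC library at 24 h. ESPL1 lost them without the 2nd siNT1 library at 24 h, and PLK1 and CCNB2 without the 1st. BUB1 and CENPI also lost them without either siGGGGGC library at 48 h. CCNB2 did so without the 2nd siGGGGGC or the 2nd siNT1 library at 48 h. On the log2 scale the difference was -0.729 for BUB1, -1.35 for PLK1, -1.43 for AURKA, -1.55 for INCENP and -1.36 for CDCA8. It was -1.17 for CENPA, -1.23 for CENPI, -0.996 for KIF11, -1.17 for KIF2C and -1.27 for KIFC1. For the remaining genes it was -1.41 for CCNB1, -0.648 for CCNB2, -1.30 for CDC20, -1.54 for ESPL1, -1.04 for TPX2 and -1.12 for NCAPH. The adjusted p-values by edgeR ran from 7.08e-07 (AURKA) to 0.00110 (CCNB2). Some of these genes also moved in the siNT1 control between 24 h and 48 h. INCENP rose there (log2 fold change 0.86, SE 0.132), and KIF2C (-0.34, SE 0.0883) and CCNB1 (-0.40, SE 0.0907) fell.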

How the results depend on the processing

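Of 3439 recomputed values, 3244 kept their direction and side of the threshold, 166 no longer passed it, 20 newly passed it and 9 changed sign; the cause was not tested. No alternative moved a count for siGGCAGU, for the direct comparison or for the interaction by over 1.5 times. With total counts only, 17 genes rose at 24 h in place of 28, 0 rose at 48 h of siGGGGGC in place of 3 (edgeR, 3 by DESeq2 and 3 at an unadjusted p below 0.05 in the TMM fit), and between the controls 8 rose and 4 fell in place of 4 and 16. With upper quartile factors 26 fell between the controls, and with no filter on low counts 10 fell there and 1 rose at 48 h of siGGGGGC. With only the libraries compared 39 rose at 24 h in place of 28 and 4 fell in place of 2. All genes then stood at 2617 higher and 2488 lower in place of 1797 and 1406. Leaving out 1 library at a time gave 15 to 22 that rose and 1 to 2 that fell at 24 h, 0 to 3 that rose at 48 h of siGGGGGC, and 1 to 5 that rose and 3 to 21 that fell between the controls; the counts that fell were 1 without either siNT1 library at 24 h or the 1st siGGGGGC library at 24 h. Between the controls 1 rose without either siNT1 library at 24 h and 2 without the 1st at 48 h, and 5, 3 and 3 fell without these libraries. A lone library was assumed to vary like the other groups. Replicates differed less at 24 h (chi-square per degree of freedom between the libraries of a group 2.29 and 3.49) than at 48 h (31.4, 42.5 and 11.2). Whether this difference in spread accounts for calls lost without a 24 h library was not tested. The values that changed sign did not pass the test in either fit: AURKB at 24 h was -1.7e-05 with upper quartile factors and -0.05 with total counts, NDC80 at 48 h of siGGGGGC 0.04 without the 2nd siNT1 library (range without each library -0.12 to 0.04), FOXM1 in the direct comparison (range -0.06 to 0.21) -0.01 without the 1st siGGCAGU library and -0.06 without the 2nd siGGGGGC library, and between the controls CENPB 0.04, TOP2A 0.01 and NCAPH 0.09 with total counts and CDC20 -0.02 with upper quartile factors. Replicate numbers did not pair the samples (r of same-numbered deviations -0.29 to 0.11, 1 of 10 pairs over 0.1), and a replicate block gave 26 that rose at 24 h and 13 that fell between the controls, with 246 of 251 calls of genes kept. All 55 genes passed the filter on low counts, and groups of 2 wells limit what can be said of small changes.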
